A study of Mus musculus with 12 samples.

Results

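Regulatory T cells (Tregs) are CD4 T cells that express the transcription factor Foxp3 and restrain immune responses. The genes described here are 41 genes of the lysosome and of autophagy, chosen by symbol from the 24421 gene symbols of a bulk RNA-seq count table of sorted mouse Tregs. They comprise lysosomal membrane proteins, cathepsins and other proteases, glycosidases, lipid-handling proteins and cofactors, subunits of the proton pump, 3 regulators of lysosome content, and factors that build the autophagosome. All 41 symbols were in the table, and 39 had enough reads to be tested among 12461 genes. The other two, Cd63 and Wipi1, had at most 6 and 9 reads in a library.

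The study asked how signalling through the interleukin-2 receptor shapes the Treg subsets, and it deleted CD25, the alpha chain of that receptor (gene Il2ra), in Tregs of living mice. There were 4 groups of 3 libraries: CD25-intact (WT) and CD25-deleted (KO) Tregs, each sorted as central Tregs (cTreg) and effector Tregs (eTreg) by a surface marker. By title and labelled cell type, the KO mice carried CD25FL/FL and the WT mice CD25WT/WT, and both carried R26tomato+/+ and Foxp3eGFPERT2+/+, so that a tamoxifen-dependent recombinase is made where Foxp3 is active and leaves a tdTomato mark. The genotype field of the labels instead lists CD25FL/FL for the WT and CD25WT/WT for the KO libraries, and the groups were not taken from it. Controls and KO mice alike received tamoxifen at 2 mg/kg by intraperitoneal injection on 5 days, and harvest followed after 10 days. Cells were sorted on viability, CD4, GFP and tdTomato, and KO cells were in addition gated on low CD25. Each library pooled spleen and lymph nodes of 2 to 3 mice. The ages of the mice, and whether cTreg and eTreg libraries came from the same mice, are not stated in the labels.

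Lysosomes are acidic compartments in which hydrolases break down proteins, lipids, glycans and nucleic acids delivered by endocytosis and autophagy. A proton pump, the vacuolar ATPase, sets the low pH, and heavily glycosylated membrane proteins such as LAMP1 and LAMP2 line the inside of the membrane. In autophagy, the ULK1 and Beclin 1 complexes start a double membrane, the ATG5, ATG7, ATG12 and ATG16L1 proteins attach LC3 and GABARAP proteins to it, and the closed vesicle fuses with a lysosome. Transcription factors of the MiT/TFE family, among them TFEB and TFE3, bind an E-box-like DNA element in many of these genes. The kinase complex mTORC1, which sits on the lysosome surface and is active in T cells that receive interleukin-2, keeps those factors in the cytoplasm. Tregs need autophagy to persist, which is known from mice lacking autophagy genes in these cells.

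Libraries held 14567313 to 19121577 counted reads. Il2ra, the deleted gene, lay between 464 and 579.8 CPM in the 6 WT libraries and between 112 and 132 CPM in the 6 KO libraries. Foxp3, by which the cells were sorted, was at 386, 385 and 407 CPM in WT cTreg and at 187, 158 and 182 CPM in KO eTreg, the groups with the highest and lowest means. The unprocessed ribosomal RNA Rn45s took 22.4 to 24.4% of reads in WT cTreg, 18.1 to 18.5% in KO cTreg, 4.11 to 4.34% in WT eTreg and 3.19 to 3.32% in KO eTreg. In bulk samples like these, a change in the share of some cells and a change in RNA per cell cannot be told apart.

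Below, CPM are read counts relative to the TMM-scaled library size, means are given ± SD (n = 3 libraries), and fold changes are on the log2 scale with their standard error (SE). Adjusted p-values are from the quasi-likelihood F-test of edgeR, adjusted by Benjamini and Hochberg's method over all 12461 genes, and a gene is said to have risen or fallen where its adjusted p was under 0.05.

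In central Tregs, 15 of the 39 tested members rose with CD25 deletion, 2 fell and 22 did not pass the test. Across all genes tested, 27.5% passed in this contrast, 14.8% upward and 12.6% downward. The median log2 difference of the tested members was 0.14, against 0.00 over all genes tested. The risers included 1 of 2 tested membrane proteins, 4 of 10 proteases, 1 of 5 glycosidases, 1 of 4 lipid-handling proteins and cofactors, 1 of 3 regulators, 3 of 5 proton pump subunits, and 4 of 10 autophagy factors. Their log2 differences ran from 0.17 (Gabarap) to 0.89 (Lgmn), and Lamp2, Ctsa, Ctsb and Grn came next below Lgmn. Of the 39 tested members, 23 had WT and KO libraries that did not overlap, against 40.4% of all genes tested.

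**Figure D1:**
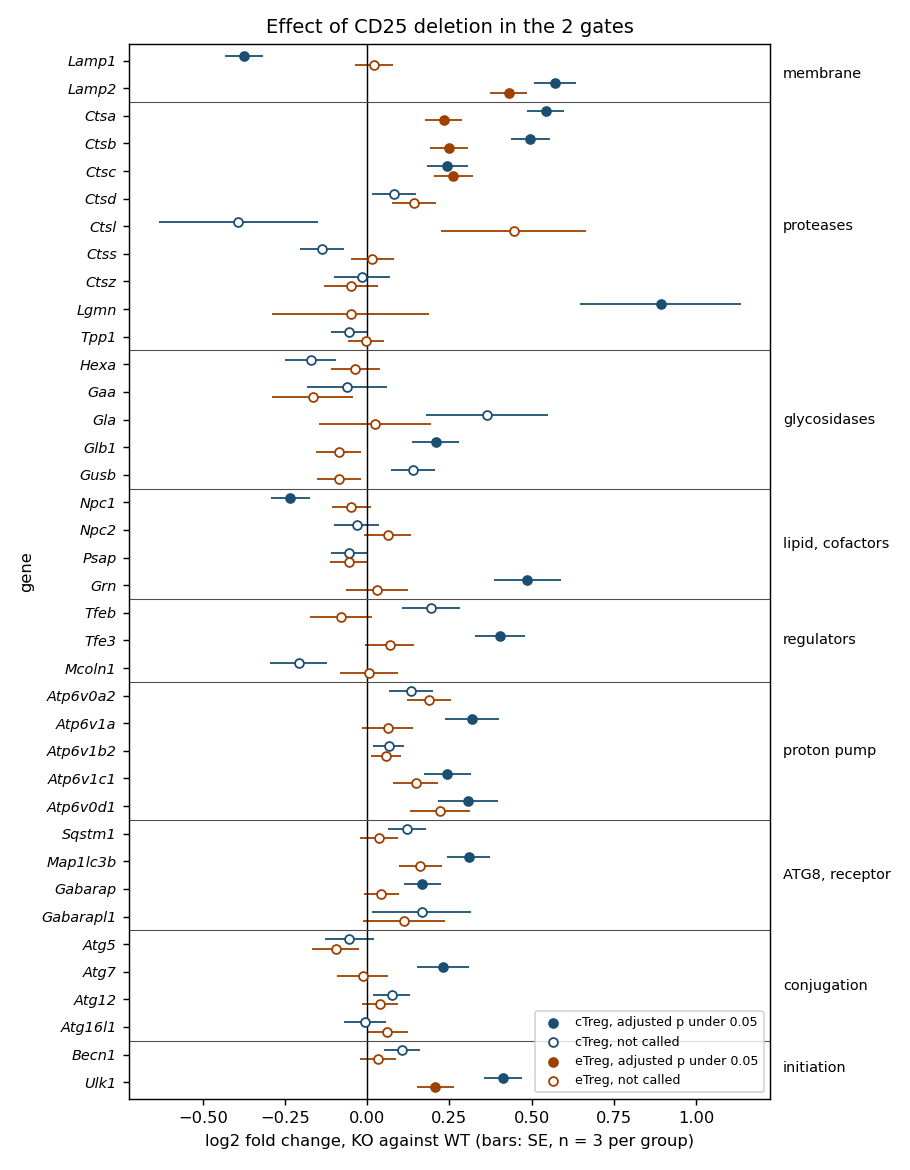
Log2 fold change of each tested member except Ctsh with CD25 deletion, in cTreg (blue) and in eTreg (orange); bars are 1 SE from a fit with 3 libraries per group, filled points passed an adjusted p of 0.05 and open points did not, and genes are ordered by role. Filled blue points lie mostly to the right of 0 (15 genes) with Lamp1 and Npc1 to the left, and the 5 filled orange points all lie to the right.

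The 2 LAMP proteins went opposite ways in KO cTreg. Lamp2 encodes a membrane glycoprotein needed for autophagosomes to fuse with lysosomes and, in one splice form, for chaperone-mediated autophagy. It measured 28.1, 30.3 and 27.9 CPM in the WT cTreg libraries and 45.6, 42.1 and 40.9 CPM in the KO cTreg libraries. All 3 KO libraries were above all 3 WT libraries, and the rise was 0.57 (SE 0.06, adjusted p = 5.6e-06), or 1.49-fold. Lamp1, the other abundant glycoprotein of the lysosomal membrane and a marker of degranulation when it reaches the cell surface, was at 156, 136 and 139.5 CPM in WT and 109, 115 and 109 CPM in KO cTreg. Every KO library was below every WT library, and Lamp1 fell by 0.37 on the log2 scale (SE 0.06, adjusted p = 0.000137), or 1.3-fold. The ratio of Lamp2 to Lamp1 reads therefore shifted, with Lamp2 the lower per kilobase of transcript in both groups (7.99 against 64.5 CPM per kb in WT, 11.9 against 49.7 in KO).

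**Figure D2:**
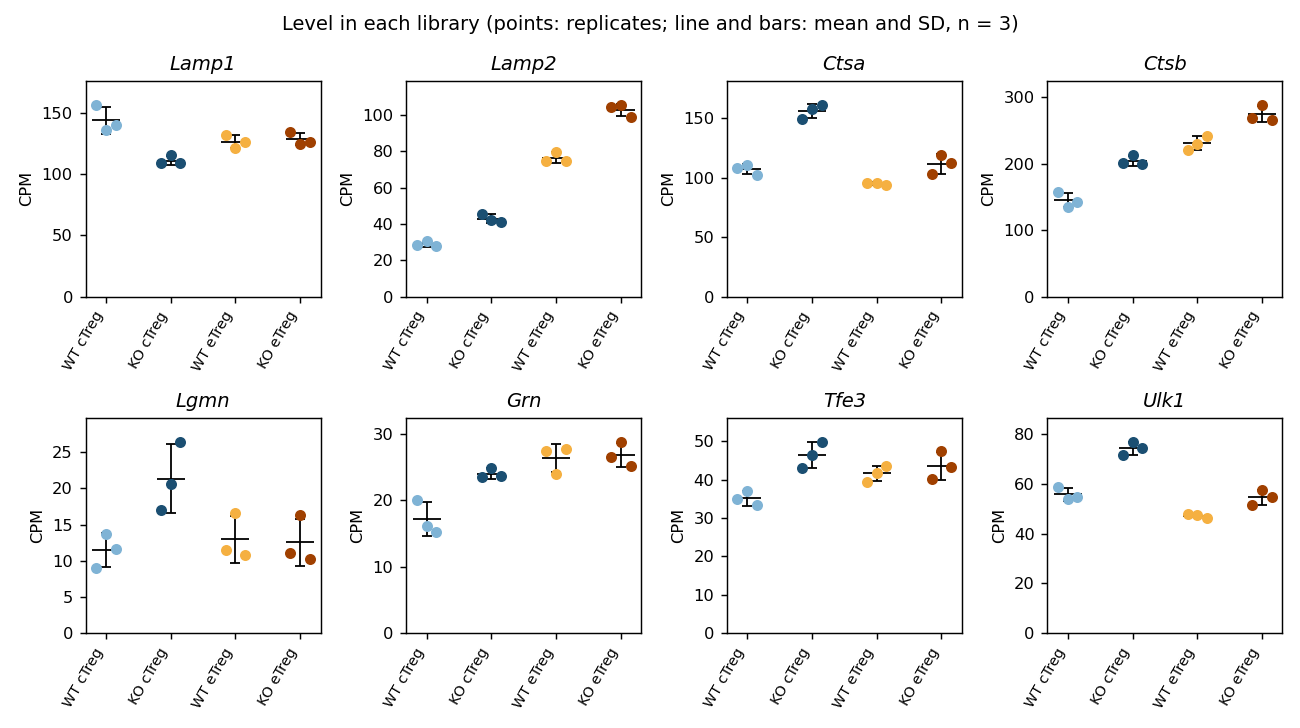
Level (CPM) of 8 members in each of the 12 libraries, with points for libraries and a line with bars for the mean and SD of 3. In cTreg the KO points of Lamp2, Ctsa, Ctsb, Lgmn, Grn, Tfe3 and Ulk1 all lie above the WT points and those of Lamp1 all lie below, while in eTreg the KO and WT points of Lamp1, Lgmn, Grn and Tfe3 overlap.

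Among the proteases, Ctsa, Ctsb, Ctsc and Lgmn rose in KO cTreg. Ctsa encodes cathepsin A (protective protein), a serine carboxypeptidase that also stabilises beta-galactosidase and neuraminidase. It went from 108, 111 and 103 CPM in WT to 149.5, 158 and 161 CPM in KO, with no overlap and a difference of 0.54 (SE 0.06, adjusted p = 2.61e-06). Ctsb, a cysteine protease gene that came after Ctss and Ctsd among the proteases in CPM per kilobase of transcript, went from 157, 135 and 143 CPM to 201, 213 and 199 CPM. The Ctsb groups did not overlap either, and the difference was 0.50 (SE 0.06, adjusted p = 1.05e-05). Ctsc, the dipeptidyl peptidase that activates granzymes and other granule proteases, rose from 48.8 ± 2.01 to 57.7 ± 3.21 CPM, by 0.24 (SE 0.06, adjusted p = 0.00762).

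Lgmn encodes legumain, an asparaginyl endopeptidase that trims other lysosomal proteases. It was less abundant, at 9.06, 13.7 and 11.7 CPM in WT cTreg and 17, 20.5 and 26.4 CPM in KO cTreg. The groups did not overlap, but KO replicate 3 lay well above the other two KO libraries. The difference of 0.89 (SE 0.24, adjusted p = 0.0193) was the largest among the members that passed the test and also the least precise, and without KO replicate 3 the adjusted p was 0.0636. Leaving out WT replicate 1 or 3 of cTreg also ended this call (adjusted p = 0.072 and 0.0609).

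The other proteases did not pass the test in KO cTreg. Ctsd (cathepsin D, the main aspartic protease) differed by 0.08 (SE 0.07, adjusted p = 0.405). Ctss (cathepsin S, an endopeptidase that works in antigen presentation), the most abundant member per kilobase, was at 229, 202 and 194 CPM in WT and 188, 197 and 183 CPM in KO, and the groups overlapped. Ctsl (cathepsin L) stood at only 4.17, 3.39 and 4.69 CPM in WT and 2.96, 3.05 and 3.3 CPM in KO cTreg. Its difference was -0.39 (SE 0.24, adjusted p = 0.258). Ctsh (cathepsin H) had 0, 0 and 1 reads in WT and 3, 2 and 0 reads in KO cTreg, too few for a fold change to be read. Ctsz and Tpp1 differed by -0.02 and -0.05.

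Grn, Glb1 and Npc1 were the members among the glycosidases, lipid-handling proteins and cofactors that passed in KO cTreg. Grn encodes progranulin, which is cut into granulins in the lysosome. It was at 20, 16.1 and 15.2 CPM in WT and 23.4, 24.9 and 23.6 CPM in KO, with no overlap and a rise of 0.49 (SE 0.10, adjusted p = 0.00178). Glb1 (beta-galactosidase) rose from 45.3 ± 3.04 to 52.3 ± 2.91 CPM, by 0.21 (SE 0.07, adjusted p = 0.0362). Npc1, the membrane protein that exports cholesterol from lysosomes, fell by 0.23 (SE 0.06, adjusted p = 0.00706), from 87.9 ± 2.98 to 74.7 ± 0.632 CPM. Its soluble partner Npc2 differed by -0.03 (SE 0.07, adjusted p = 0.771), and Psap, the precursor of the saposins that help degrade sphingolipids, by -0.05 (SE 0.06, adjusted p = 0.516). Gla, Gusb, Gaa and Hexa, which encode lysosomal glycosidases, differed by 0.36, 0.14, -0.06 and -0.17 and did not pass.

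Of the 3 regulators, Tfe3 rose. Tfe3 was at 35, 37.1 and 33.3 CPM in WT cTreg and 43.1, 46.4 and 49.9 CPM in KO cTreg, a difference of 0.40 (SE 0.08, adjusted p = 0.000904) with no overlap. Tfeb was at 19.3, 19 and 18.2 CPM and 20.6, 21.8 and 22.2 CPM. Its groups did not overlap, but the difference of 0.20 (SE 0.09, adjusted p = 0.114) missed the threshold. Mcoln1, the calcium channel of the lysosome membrane that activates calcineurin and through it TFEB, was at 36.2, 36 and 40.6 CPM and 30.8, 31.8 and 35.1 CPM. Here too the groups did not overlap, with KO below WT, and the difference of -0.21 (SE 0.09, adjusted p = 0.0875) missed the threshold. These are transcript levels, and TFEB and TFE3 are known to be controlled largely by where the protein sits in the cell.

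The 5 proton pump subunits all had positive differences in KO cTreg and no overlap between WT and KO libraries, and 3 of the 5 passed. Atp6v1a, the catalytic subunit, rose by 0.32 (SE 0.08, adjusted p = 0.00809), from 38.7 ± 1.68 to 48.2 ± 2.86 CPM. Atp6v0d1, a subunit of the membrane sector, rose by 0.31 (SE 0.09, adjusted p = 0.019), and Atp6v1c1, of the stalk, by 0.24 (SE 0.07, adjusted p = 0.0185). Atp6v0a2 and Atp6v1b2 differed by 0.13 and 0.06 (adjusted p = 0.161 and 0.339).

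Autophagy factors followed a mixed pattern, with Ulk1, Map1lc3b, Gabarap and Atg7 higher in KO cTreg. Ulk1, the kinase that starts autophagy and is inhibited by mTORC1, rose by 0.41 (SE 0.06, adjusted p = 4.99e-05), from 55.7 ± 2.57 to 74.1 ± 2.69 CPM. Map1lc3b, which encodes the vesicle protein LC3B, was at 66.6, 63.9 and 70.1 CPM in WT and 74.8, 81.2 and 92.3 CPM in KO. The groups did not overlap, and the difference was 0.31 (SE 0.07, adjusted p = 0.0022). Gabarap, of the same protein family, rose by 0.17 (SE 0.06, adjusted p = 0.0311), though its WT and KO libraries overlapped. Atg7, the activating enzyme of the conjugation system, rose by 0.23 (SE 0.08, adjusted p = 0.0377). Sqstm1, which encodes the cargo receptor p62, was at 179, 157 and 167 CPM in WT and 172, 184 and 189 CPM in KO, overlapping, with a difference of 0.12 (SE 0.06, adjusted p = 0.134). Atg5, Atg12, Atg16l1, Becn1 and Gabarapl1 lay between -0.05 and 0.17 and did not pass.

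Of the 17 calls in cTreg, 10 held in each of 21 alternative analyses: Lamp1, Lamp2, Ctsa, Ctsb, Grn, Npc1, Tfe3, Atp6v1a, Map1lc3b and Ulk1. Atg7, Gabarap, Glb1, Atp6v0d1, Atp6v1c1, Ctsc and Lgmn each lost the call in 1 or more, with adjusted p up to 0.131, 0.148, 0.160, 0.0833, 0.104, 0.0535 and 0.0720. The count fell to 11 members without KO cTreg replicate 2, where the number of all genes called fell to 2534 from 3421.

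Because the MiT/TFE element is the best known shared sequence of these genes, the promoter windows of members were searched for its palindromic core, TCACGTGA, and for the E-box CACGTG inside it (so each core match is also an E-box match). A window ran from 250 bases before to 50 bases after a RefSeq transcript start on GRCm38.p6 (mm10), and 32 of the 41 members had one. The core was in 6 of the 32 members (18.75%): Ctsa, Ctsd, Gla, Mcoln1, Atp6v1a and Atp6v0d1. It was in 1.12% of all 27025 genes with a window and in 2.31% of 9220 tested genes with one. CACGTG was in 13 of 32 members (40.62%), against 8.09% of all genes and 11.75% of tested genes. Among 160 further lysosome and autophagy genes with a window, the core was in 8.12% and CACGTG in 20.62%. Both motifs read the same on the other strand. The stretches below show how alike the matches are in members with different calls in KO cTreg: Ctsa, Atp6v1a and Atp6v0d1 rose, while Ctsd and Mcoln1 did not pass. Gla, whose matches are not shown, did not pass either (adjusted p = 0.165). Its difference of 0.36 was larger than those of Atp6v1a (0.32) and Atp6v0d1 (0.31). Capitals mark the core, and each stretch is 30 bases, read 5′ to 3′ on the gene's own strand.
Ctsa, chr2:164833749-164833778 (+): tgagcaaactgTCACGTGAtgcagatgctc
Ctsa, chr2:164833766-164833795 (+): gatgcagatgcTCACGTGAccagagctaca
Atp6v1a, chr16:44139373-44139402 (-): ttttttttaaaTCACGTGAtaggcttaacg
Atp6v0d1, chr8:105566050-105566079 (-): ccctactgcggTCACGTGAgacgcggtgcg
Ctsd, chr7:142387908-142387937 (-): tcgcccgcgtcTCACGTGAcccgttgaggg
Mcoln1, chr8:3500462-3500491 (+): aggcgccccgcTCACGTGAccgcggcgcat
The stretches of Ctsa, Ctsd and Mcoln1 overlap a GENCODE vM21 exon of a member, and those of Atp6v1a and Atp6v0d1 do not. Exons of genes outside the 41 were not searched. The Lamp1 window, shown because this gene fell, held 4 copies of the E-box (capitals) and none of the longer core, in the 71 bases directly upstream of the annotated gene.
Lamp1, chr8:13159090-13159160 (+): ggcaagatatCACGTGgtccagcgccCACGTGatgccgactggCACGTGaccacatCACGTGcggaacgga
A motif for STAT5, the factor activated by the interleukin-2 receptor, was searched as TTCNNNGAA. It was in 4 of the 32 members (12.5%), Ctsc, Gabarap, Gabarapl1 and Wipi1. The share was 9.55% of all genes, 8.38% of tested genes and 11.25% of the 160 further lysosome and autophagy genes. These matches describe letters in a window and say nothing about which factor was bound in these cells.

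In effector Tregs, 5 of the 39 tested members rose with CD25 deletion and none fell. Over all genes, 6.65% passed in this contrast, 3.25% upward and 3.4% downward, and the members' median log2 difference was 0.04 against 0.01 for all genes tested. The 5 were Lamp2, Ctsa, Ctsb, Ctsc and Ulk1, each of which also rose in cTreg, where they made up 5 of 17 calls. At an unadjusted p under 0.05, edgeR gave 9 of the 39 members, all higher, against 19.4% of all genes tested, and neither DESeq2 nor limma-voom called a member lower. WT and KO eTreg libraries did not overlap for 9 members, against 25.2% of all genes tested.

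Lamp2 had the largest of these differences. It was at 74.4, 79.8 and 74.8 CPM in WT eTreg and 104, 105 and 99 CPM in KO eTreg, all KO libraries above all WT libraries, a rise of 0.43 (SE 0.06, adjusted p = 0.000205). Ctsb went from 221, 230.0 and 241 CPM to 269, 288 and 265 CPM, again without overlap, by 0.25 (SE 0.06, adjusted p = 0.0144). Ctsa went from 95.6, 95.6 and 93.8 CPM to 103, 119 and 112 CPM, by 0.23 (SE 0.06, adjusted p = 0.0177). Ctsc rose by 0.26 (SE 0.06, adjusted p = 0.0135), from 56.7 ± 2.64 to 68 ± 3.02 CPM, and Ulk1 by 0.21 (SE 0.06, adjusted p = 0.0381), from 47.2 ± 0.692 to 54.5 ± 2.87 CPM. Lamp2 held its call in all 22 alternatives. Without WT eTreg replicate 2, Lamp2 was the only member called in this contrast, with adjusted p of 0.0561 for Ctsa, 0.0547 for Ctsb, 0.0528 for Ctsc and 0.103 for Ulk1. The count was 2 without WT replicate 1 or KO replicate 2 of eTreg, and 3 without WT or KO replicate 3. The fit to the 6 eTreg libraries with the replicate number as a block called 7 members, all higher, where it called 14% of all genes (1712 of 12208), namely these 5 with Atp6v0a2 (0.18, adjusted p = 0.0264) and Atp6v0d1 (0.21, adjusted p = 0.0393).

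Of the 17 members called in cTreg, 12 were not called in eTreg, among them Lamp1, Grn, Lgmn, Tfe3 and Map1lc3b. Lamp1 was at 132, 121 and 126 CPM in WT eTreg and 134, 125 and 126 CPM in KO eTreg, a difference of 0.02 (SE 0.06, adjusted p = 0.902), with a 95% interval from -0.10 to 0.14. Grn was at 27.4, 23.9 and 27.7 CPM and 26.5, 28.8 and 25.2 CPM, overlapping, with a difference of 0.03 (SE 0.09, adjusted p = 0.915). Lgmn was at 11.5, 16.6 and 10.7 CPM and 11.1, 16.3 and 10.3 CPM and differed by -0.05 (SE 0.24, adjusted p = 0.943). Tfe3 was at 39.5, 41.8 and 43.5 CPM and 40.2, 47.4 and 43.2 CPM and differed by 0.07 (SE 0.07, adjusted p = 0.684), with a 95% interval from -0.09 to 0.23. Map1lc3b was at 61.6, 60.1 and 61.9 CPM and 67.7, 68.1 and 69.6 CPM, with no overlap and a difference of 0.16 (SE 0.07, adjusted p = 0.17). The remaining members of the set differed by between -0.17 (Gaa) and 0.45 (Ctsl), and none passed. Ctsl was at 4.72, 3.55 and 3.73 CPM in WT and 7.04, 5.72 and 3.55 CPM in KO eTreg, where KO replicate 1 was highest.

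Whether a KO effect differed between the subsets was tested directly as the effect in eTreg minus that in cTreg. Only 2 of the 39 tested members passed, Lamp1 and Ctsa, where 3.8% of all genes did (0.803% upward, 3% downward). For Lamp1 the difference was 0.40 (SE 0.08, adjusted p = 0.00926): the KO libraries were lower in cTreg and level with WT in eTreg. For Ctsa it was -0.31 (SE 0.08, adjusted p = 0.0357): KO was above WT in both subsets and by less in eTreg. Lamp1 passed in all 20 alternatives, and Ctsa lost the call in 9 of the 12 fits without a single library (adjusted p up to 0.105). For the other members the difference of effects missed the threshold, including Lgmn (-0.94 (SE 0.34, adjusted p = 0.185)), Grn (-0.46 (SE 0.14, adjusted p = 0.0799)) and Tfe3 (-0.34 (SE 0.11, adjusted p = 0.102)), so their effects are not shown to differ between the subsets. Lgmn passed with the replicate number as a block (-0.95, adjusted p = 0.0422) and with DESeq2 (-0.94, adjusted p = 0.0489).

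**Figure D3:**
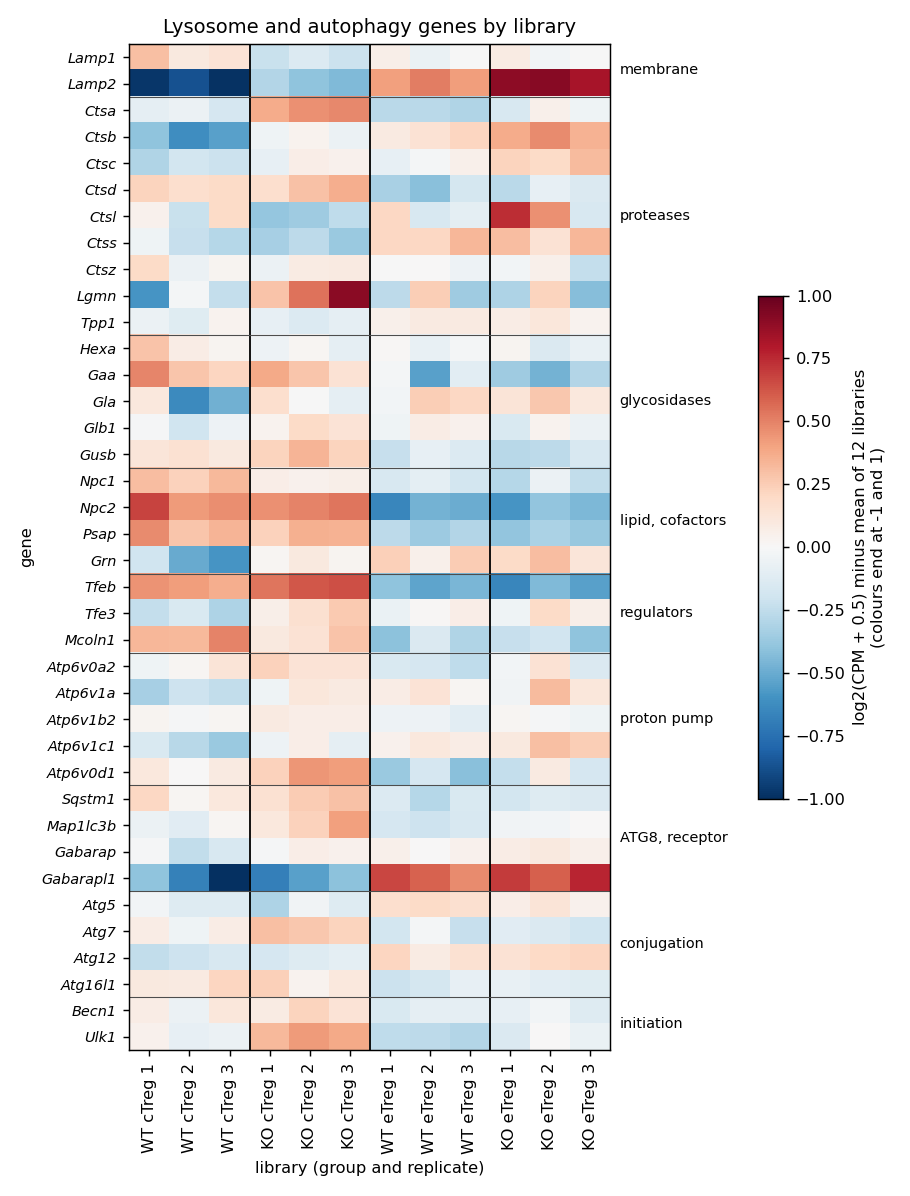
Each tested member except Ctsh (rows, by role) in each of the 12 libraries (columns, by group), as log2(CPM + 0.5) minus the gene's mean over the 12 libraries, with colours that end at -1 and 1. Lamp2 and Gabarapl1 run from blue in cTreg to red in eTreg, Npc2, Psap and Tfeb run the other way, and the KO cTreg columns are redder than the WT cTreg columns for Ctsa, Lgmn, Grn and Ulk1.

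Between the subsets, most members differed, as did most genes. In WT cells, 15 of the 39 tested members were higher in eTreg, 17 lower and 7 did not pass, where 71.5% of all genes passed (35.7% upward, 35.8% downward). In KO cells, 12 were higher and 19 lower, where 72% of all genes passed (36.1% upward, 35.8% downward). The eTreg and cTreg libraries did not overlap for 33 of the 39 tested members in WT, against 74.9% of all genes tested, and for 31 in KO, against 74.6%. The members' median log2 difference was -0.08 in WT and -0.11 in KO. These counts depend on how libraries are scaled. Across 11947 tested genes with a GENCODE length and GC content, the eTreg minus cTreg difference ran with transcript GC content (Spearman's rho -0.57 in WT and -0.62 in KO, across genes of the same libraries, which are not independent replicates). The same rho was 0.01 for the KO difference in cTreg and -0.14 in eTreg. When a smooth function of length and GC content was taken out of each library as an offset, 13 of the 32 calls in WT remained, 8 higher and 5 lower, 16 were lost and 3 turned to a call the other way. In KO, 12 of 31 remained, 6 higher and 6 lower, 16 were lost and 3 turned. With the offset 56.6% and 56.5% of all genes passed, and all 17 and 5 KO calls within subsets remained. Subset differences that remained are described next, with the value under the offset, followed by some of those that did not. With library sizes taken without Rn45s, 16 members were higher and 12 lower in WT eTreg, and the part of Rn45s and GC content in the subset differences was not tested further.

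**Figure D4:**
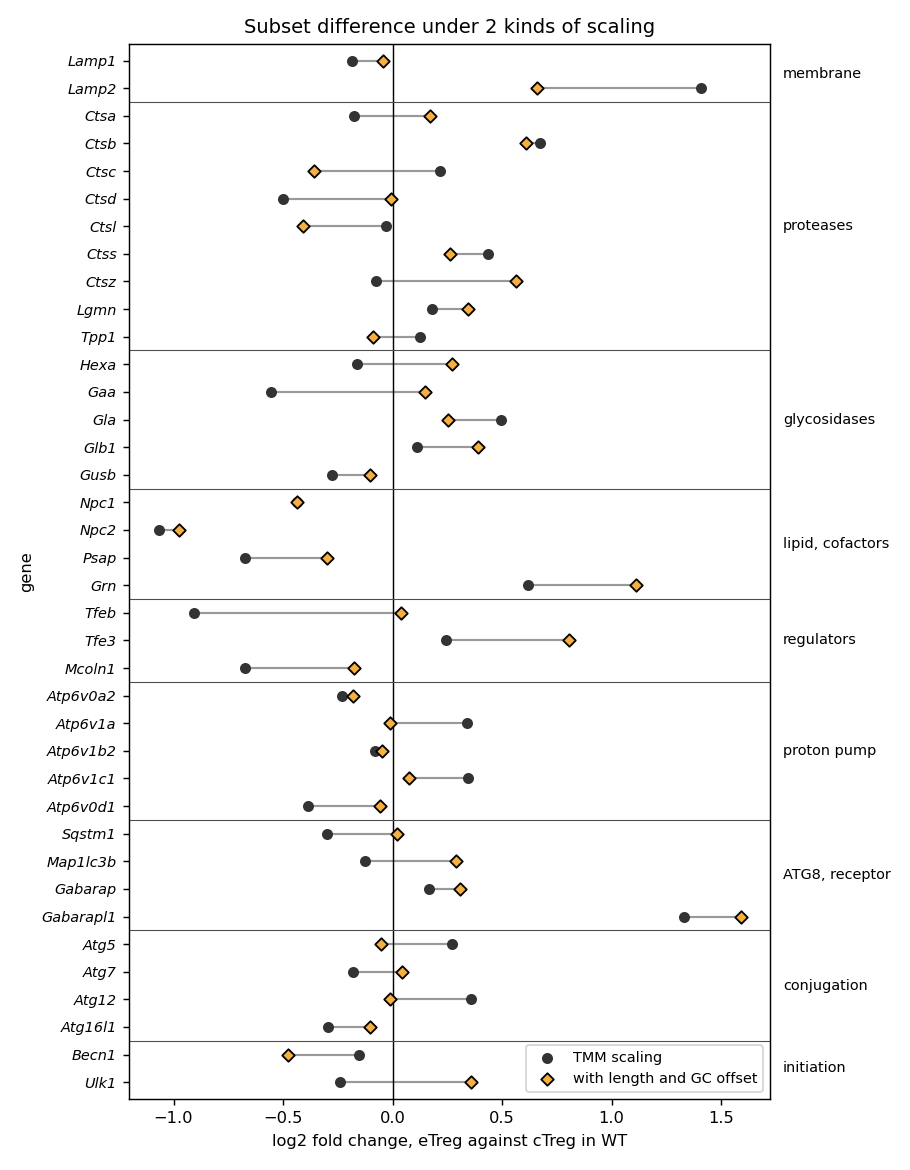
Log2 difference between eTreg and cTreg in WT cells for each tested member except Ctsh, with TMM scaling (black circles) and with the length and GC offset (orange diamonds), joined by a line. Gabarapl1, Grn, Lamp2 and Ctsb stay to the right of 0 and Npc2, Becn1, Npc1 and Psap to the left, while Tfeb, Gaa, Ulk1, Ctsz and others cross 0.

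With TMM scaling, Lamp2 and Gabarapl1 had the largest upward differences in eTreg among members other than Ctsh, which had few reads. With the offset, Grn and Tfe3 also exceeded Lamp2 in WT. Lamp2 went from the cTreg levels given above to those of eTreg by 1.41 (SE 0.06, adjusted p = 7.76e-12) in WT, and by 0.66 with the offset. In KO cells it differed by 1.26 (SE 0.06, adjusted p = 2e-11), and by 0.45 with the offset. Its 4 groups were ordered WT cTreg, KO cTreg, WT eTreg, KO eTreg from low to high, with no overlap between neighbours. Gabarapl1, a member of the GABARAP family that FOXO factors are known to activate in other tissues, was at 8.74, 7.14 and 5.3 CPM in WT cTreg, 7.11, 7.86 and 8.71 CPM in KO cTreg, 19, 17.8 and 16.4 CPM in WT eTreg and 19.3, 18 and 20.2 CPM in KO eTreg. All 6 eTreg libraries were above all 6 cTreg libraries, with overlap between WT and KO in each subset. The difference was 1.33 (SE 0.14, adjusted p = 2.27e-07) in WT and 1.28 (SE 0.14, adjusted p = 2.55e-07) in KO, and the offset values were 1.59 and 1.56.

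Ctsb, Ctss, Ctsh, Grn and Tfe3 were also higher in WT eTreg under both scalings. Ctsb differed by 0.67 (SE 0.06, adjusted p = 2.52e-08) (offset 0.61) and Grn by 0.62 (SE 0.10, adjusted p = 3.03e-05) (offset 1.11). In KO cells Ctsb differed by 0.42 (offset 0.35). Grn and Tfe3 in KO cells differed by 0.16 and -0.09 with TMM scaling (adjusted p = 0.138 and 0.284), but by 0.68 and 0.50 with the offset (adjusted p = 8.95e-06 and 4.21e-05). Ctss was at 273, 273 and 298 CPM in WT eTreg and 294, 262 and 298 CPM in KO eTreg, above all cTreg libraries in each genotype, by 0.43 (SE 0.07, adjusted p = 1.71e-05) in WT (offset 0.26) and 0.59 (SE 0.07, adjusted p = 5.46e-07) in KO (offset 0.41). Ctsh had 7, 16 and 6 reads in WT eTreg and 11, 20 and 6 in KO eTreg, against at most 3 in a cTreg library, and passed in both genotypes (adjusted p = 0.00276 and 0.00506, and 0.00277 and 0.00444 with the offset). Tfe3 differed by 0.24 (SE 0.08, adjusted p = 0.00914) in WT (offset 0.80), and Gabarap by 0.17 (offset 0.31).

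Npc2, Psap, Npc1 and Becn1 were lower in eTreg under both scalings and in both genotypes. Npc2, the soluble cholesterol carrier, was at 219, 184 and 188 CPM in WT cTreg and 187, 193 and 198 CPM in KO cTreg. In eTreg it was at 86.8, 98.2 and 96.6 CPM in WT and 90.6, 104 and 99.6 CPM in KO. All 6 eTreg libraries were below all 6 cTreg libraries, and Npc2 fell by 1.07 in WT and by 0.98 in KO on the log2 scale (SE 0.07 in each, adjusted p = 7.79e-10 and 2.43e-09), with offset values of -0.98 and -0.88. Psap was at 372, 324 and 338 CPM in WT cTreg, 313, 342 and 340.0 CPM in KO cTreg, 222, 207 and 218 CPM in WT eTreg and 203, 215 and 206 CPM in KO eTreg. It fell by 0.67 in WT and by 0.68 in KO, and with the offset the differences were -0.30 and -0.28. Npc1 differed by -0.44 (SE 0.06, adjusted p = 4.4e-06) in WT (offset -0.44) and -0.25 (SE 0.06, adjusted p = 0.00117) in KO (offset -0.26). Becn1, the core of the lipid kinase complex that starts autophagosomes, differed by -0.16 in WT (offset -0.48) and -0.23 in KO (offset -0.57), and its WT call was lost in 5 of the other alternatives. In 1 genotype each, Atp6v0a2 in WT (-0.23, offset -0.18) and Atg7 in KO (-0.43, offset -0.19) also stayed called lower.

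With TMM scaling, Lamp1 was the only tested member called in opposite directions in the 2 genotypes, at -0.19 (SE 0.06, adjusted p = 0.00797) in WT and 0.21 (SE 0.06, adjusted p = 0.00388) in KO. With the offset it was -0.04 in WT (adjusted p = 0.517) and 0.36 in KO (adjusted p = 2.68e-05). Gusb in KO fell by 0.50 (offset -0.32), from 41, 44.5 and 41 CPM in KO cTreg to 28.8, 29.2 and 31.4 CPM in KO eTreg. In WT it was at 38.2, 39.1 and 37.6 CPM in cTreg and 29.9, 33.1 and 31.8 CPM in eTreg. That WT difference of -0.28 (adjusted p = 0.00131) became -0.10 with the offset and no longer passed (adjusted p = 0.181).

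Other subset differences did not outlast the offset. Tfeb was at 10.5, 9.59 and 10.1 CPM in WT eTreg and 8.77, 10.2 and 9.48 CPM in KO eTreg, below all cTreg libraries, and fell by 0.91 in WT and 1.18 in KO, but its offset values were 0.04 (adjusted p = 0.717) and -0.18 (adjusted p = 0.0831). Mcoln1, at 21.4, 25.9 and 23.1 CPM in WT eTreg and 24.3, 25 and 21.6 CPM in KO eTreg, had values of -0.67 and -0.46, and with the offset -0.17 and 0.07, neither passing. Ctsd was at 204, 196 and 199.8 CPM in WT cTreg, 196, 214 and 225 CPM in KO cTreg, 139, 130.2 and 155 CPM in WT eTreg and 145, 165 and 158 CPM in KO eTreg. Its differences of -0.50 and -0.44 became -0.01 and 0.08. Gaa, acid alpha-glucosidase, was at 31.8, 27.4 and 26.2 CPM in WT cTreg and 29.5, 27.3 and 25 CPM in KO cTreg, against 22.2, 15.3 and 20.9 CPM in WT eTreg and 17.4, 16.1 and 18.3 CPM in KO eTreg. Its differences of -0.55 and -0.66 became 0.15 and 0.08. Sqstm1 was at 141, 127 and 139 CPM in WT eTreg and 136, 142 and 139.7 CPM in KO eTreg, and its differences of -0.30 and -0.39 became 0.02 and -0.05. Ctsl and Lgmn in KO had 0.81 and -0.76, and with the offset 0.40 and -0.58, neither passing. Ulk1 and Ctsc passed in both directions depending on the scaling, in both genotypes. Ctsz, Hexa and Atp6v1b2 passed in no 2-group contrast with TMM scaling.

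The members spanned a wide range of levels. In WT cTreg the highest per kilobase of transcript were Ctss at 154, Psap at 129.7, Ctsd at 94.1 and Gabarap at 81.6 CPM per kb. Lamp1, Sqstm1 and Npc2 followed at 64.5, 62.6 and 59.7 CPM per kb. In WT eTreg the order at the top was Ctss (208), Gabarap (91.6), Psap (81.3) and Ctsd (66.5). Tfeb and Tfe3 stood at 8.04 and 10.4 CPM per kb in WT cTreg and at 4.29 and 12.3 in WT eTreg. At the low end of the tested members in WT cTreg were Gabarapl1, Gla and Ctsl, at 3.88, 1.64 and 0.662 CPM per kb, and Ctsh. These levels use 1 annotated transcript length per gene, and they inherit any bias with length or GC content within a library.

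Several members, among them Ctsb, Ctsl, Ctss, Ctsh, Lgmn, Grn, Npc2 and Psap, are abundant in macrophages. All 15 markers of macrophages and monocytes were in the table, and their summed level was 7.57 to 10.4 CPM in WT cTreg, 9.41 to 17.8 in KO cTreg, 6.62 to 9.96 in WT eTreg and 6.26 to 12.1 in KO eTreg. The highest sum was in KO cTreg replicate 3, the library with the highest Lgmn. Their mean level was higher in KO than in WT cTreg for 7 of the 15 and lower for 7. Lyz2 was at 0.882, 1.01 and 1.61 CPM in WT and 1.48, 0.914 and 4.22 CPM in KO cTreg, highest in that same replicate 3. Among cTreg libraries, C1qc (0.791 CPM), Csf1r (0.725 CPM) and Marco (0.594 CPM) were also highest there. Cd68 was at 4.73, 4.76 and 4.76 CPM in WT and 3.63, 3.9 and 4.29 CPM in KO cTreg. Cd14 and Fcgr1 had no reads in any KO cTreg library, and Ms4a7 had none in any cTreg library. Adgre1 stayed under 0.37 CPM and Csf1r under 0.73 CPM in every library. Itgam, which T cells can also express, was at 1.28, 0.937 and 2.07 CPM in WT and 2.89, 4.51 and 6.13 CPM in KO cTreg. Of 8 dendritic cell markers, 2 had no reads in any library, and the sum was 0.433 to 0.642 CPM in WT cTreg, 0.731 to 1.71 in KO cTreg, 4.43 to 5.77 in WT eTreg and 5.88 to 6.98 in KO eTreg. The mean level of 6 of the 8 was higher in KO than in WT cTreg, with 0 lower and 2 equal. In eTreg 4 were higher, 2 lower and 2 equal. The eTreg sums came mostly with Zbtb46, at 2.61 CPM on average in WT and 4.79 in KO, and Xcr1, at 2.15 and 1.46. Summed CD8 T and NK cell markers were 13.8 to 17.1 CPM in WT cTreg and 22.7 to 27.2 in KO cTreg, and 7.45 to 10.8 in WT eTreg and 7.62 to 21.7 in KO eTreg. In cTreg the higher sum came mostly with Eomes, at 3.77 CPM on average in WT and 13.8 in KO, while Cd8b1 was at 10.9 and 9.48 CPM. The 21.7 in KO eTreg replicate 2 held 11.4 CPM of Klrb1c. Cd74, the invariant chain of MHC class II and abundant in antigen-presenting cells, rose in KO cTreg by 1.07 (SE 0.16, adjusted p = 0.000345), and H2-Aa and H2-Ab1 differed by 0.94 and 0.49 (adjusted p = 0.169 and 0.490). Summed B cell markers were 11.6 to 12.8 CPM in WT cTreg, 7.71 to 9.75 in KO cTreg, 15.5 to 15.9 in WT eTreg and 9.77 to 12 in KO eTreg. The 10 Treg markers summed to 3861 CPM or more in every library. The part of other cells in the members' differences was not tested.

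The wider pathway was described with 202 further genes of lysosomes, their biogenesis and autophagy, of which 196 were in the table and 187 tested. In KO cTreg 26 rose and 20 fell (24.6% called, against 27.5% of all genes), and their median log2 difference was 0.02. In KO eTreg 8 rose and 7 fell (8.02% against 6.65%), with a median of 0.02. The subset contrast gave 64 higher and 78 lower in WT (75.9% against 71.5%), and 66 higher and 78 lower in KO (77% against 72%), which became 47 and 54 in WT and 48 and 52 in KO with the length and GC offset. These shares with TMM scaling lay near those over all genes. In the 8 lists that follow, the share called ran from 14.3 to 31.2% in KO cTreg and from 0 to 13.8% in KO eTreg.

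In KO cTreg, 2 of 31 tested genes of the mTORC1 and TFE axis rose and 7 fell. Both risers encode Rag GTPases, Rragb at 0.42 and Rragc at 0.17 (adjusted p = 0.0483 and 0.0485), and they lost the call in 18 and 17 of 21 alternatives (adjusted p up to 0.187 and 0.148). Rragd, which encodes a Rag GTPase that recruits mTORC1 and its substrates to the lysosome, was at 21.3, 21.4 and 16.5 CPM in WT cTreg and 10.2, 7.5 and 7.91 CPM in KO cTreg. In eTreg it was at 38.3, 36.1 and 41.7 CPM in WT and 22.3, 12.8 and 21.3 CPM in KO. KO libraries were below WT libraries in both subsets, by -1.21 (SE 0.21, adjusted p = 0.0013) and by -1.04 (SE 0.18, adjusted p = 0.00556). Ppp3ca, a catalytic subunit of calcineurin, differed by -0.59 (SE 0.09, adjusted p = 7.52e-05) in cTreg. In eTreg 1 gene of this list rose (Flcn, folliculin, 0.26 (SE 0.07, adjusted p = 0.0376)) and 3 fell, among them Rragd and Fnip1, a partner of folliculin, by -0.25. The Flcn and Fnip1 calls in eTreg were lost without single libraries (adjusted p up to 0.158 and 0.110).

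Of 14 tested proton pump genes that were not among the 41, 1 rose and 1 fell in cTreg. The one that fell, Atp6v0a1, encodes another form of the subunit that Atp6v0a2 encodes. It was at 19.1, 17.3 and 20.1 CPM in WT cTreg and 6.97, 7.19 and 7.78 CPM in KO cTreg, a difference of -1.36 (SE 0.13, adjusted p = 8.35e-07). In eTreg it went from 8.3, 11 and 8.66 CPM to 5.71, 5.41 and 5.65 CPM, by -0.74 (SE 0.13, adjusted p = 0.0022). Tcirg1, a further form of that subunit, rose by 0.20 (SE 0.06, adjusted p = 0.0311) in cTreg, a call lost in 4 fits without a single library (adjusted p up to 0.125).

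Among 29 tested genes of sorting and fusion, 7 rose and 1 fell in cTreg, and 3 rose and 1 fell in eTreg. Igf2r, the large mannose-phosphate receptor that delivers hydrolases to lysosomes, was the faller in both, from 523, 435 and 551 CPM to 263, 254 and 273 CPM in cTreg and from 268, 291 and 293 CPM to 198, 183 and 190.0 CPM in eTreg. The differences were -0.94 (SE 0.07, adjusted p = 1.68e-07) and -0.58 (SE 0.07, adjusted p = 0.000185). Lyst, which controls lysosome size, rose by 0.63 (SE 0.13, adjusted p = 0.00493) in cTreg and by 0.51 (SE 0.13, adjusted p = 0.04) in eTreg, where the call was lost in 11 alternatives (adjusted p up to 0.142). Rab27a, which docks secretory lysosomes, rose by 0.34 (SE 0.06, adjusted p = 0.000203) and 0.36 (SE 0.05, adjusted p = 0.000669).

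Of 16 tested proteases and inhibitors outside the 41, 3 rose and 2 fell in KO cTreg. This list held 4 of the 5 further pathway genes that passed the test of different effects in the subsets. Over all 187 further pathway genes tested, 2.67% passed that test, against 3.8% of all genes. Cst7, cystatin F, an inhibitor of cathepsins in immune cells, rose from 10.7, 14.3 and 8.22 CPM to 33.3, 33.7 and 27.7 CPM in cTreg, by 1.50 (SE 0.18, adjusted p = 8.14e-05). The eTreg effect minus the cTreg effect was -1.22 (SE 0.23, adjusted p = 0.0118). Scpep1, a serine carboxypeptidase related to cathepsin A, rose by 1.48 (SE 0.20, adjusted p = 5.7e-05), with a difference of effects of -1.49 (SE 0.27, adjusted p = 0.00436). Prcp, another carboxypeptidase, fell by 0.71 in cTreg, with a difference of effects of 0.67 (SE 0.18, adjusted p = 0.0432). Ctsw, a cathepsin of cytotoxic lymphocytes, was at 113, 91.5 and 119 CPM in WT and 25.2, 24.8 and 26.3 CPM in KO cTreg, and its difference of effects was 1.36 (SE 0.22, adjusted p = 0.00557).

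In the remaining lists, of 30 tested hydrolases, 5 rose and 3 fell in KO cTreg, from Arsb at -0.54 to Fuca2 at 0.47. Of 26 tested lysosomal membrane genes 3 rose and 4 fell, among them Tpcn1, a gene for an endolysosomal ion channel, at -0.49 (SE 0.06, adjusted p = 1.02e-05), and Scarb2, the receptor of glucocerebrosidase, at -0.29 (SE 0.06, adjusted p = 0.000926). Of 28 tested core autophagy genes 3 rose and 1 fell. Vmp1, a membrane protein needed to form autophagosomes, rose by 0.92 (SE 0.14, adjusted p = 0.00069) in cTreg and by 0.58 (SE 0.13, adjusted p = 0.0235) in eTreg, where 7 alternatives lost the call (adjusted p up to 0.1). Atg16l2, a relative of Atg16l1, rose by 0.47 (SE 0.07, adjusted p = 5.28e-05) in cTreg, while Atg16l1 itself differed by -0.01. Of 13 tested autophagy receptors and adaptors 2 rose and 1 fell in cTreg, by less than 0.2 each on the log2 scale, and none passed in eTreg, where edgeR gave 2 at an unadjusted p under 0.05.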

How the data were processed

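Bulk RNA was sequenced from 12 libraries of sorted mouse Tregs, and the authors deposited these as 1 table of read counts, not normalised, with a row for each gene symbol. Per the labels' protocols, RNA came from a Qiagen RNeasy kit and libraries from KAPA RNA HyperPrep with RiboErase, a ribosomal RNA depletion. HISAT2 2.2.1, Cell Ranger and the build mm10 are named in the submitters' processing notes, without their roles. How reads were assigned to genes, with which annotation and strand setting, is not given in the sources used here. Values of overlapping genes and near-identical copies are therefore uncertain.

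The members and the lists of pathway genes and cell markers were chosen with earlier results of these data known. Counts were fitted in R 4.3.3 with edgeR 4.0.16 (filterByExpr, TMM, robust quasi-likelihood F-test, two-sided, 12 libraries in 4 groups of 3, common biological coefficient of variation 0.0768). Benjamini-Hochberg adjustment ran over the 12461 genes in each of 5 contrasts, and genes were called at an adjusted p under 0.05. An SE is the log2 fold change divided by the square root of F. Each library is a biological replicate, a pool of mice, per the series' design text, and replicates of a group differed by more than sampling noise (chi-squared 3.62 to 10.2 per degree of freedom). Same-numbered WT and KO eTreg libraries deviated together (r = 0.281, 0.387 and 0.184 over genes). This hints at pairs, which the labels do not state. The main fit had no block, so its eTreg p-values do not use such pairs. The replicate number entered as a block only in alternatives. Values in every library are printed for members called with a log2 change of at least 0.5, and for Tfeb, Tfe3, Mcoln1, Lamp1, Map1lc3b and Sqstm1. From each other pathway list at most the 2 largest rises and falls are named, among called genes whose mean log2 CPM was 3 or more. Gene lengths, GC content and exons are from GENCODE vM21, matched by symbol for 11950 tested genes, and promoter sequences from RefSeq on GRCm38.p6. Alternatives were DESeq2 1.42.0, limma-voom (limma 3.58.1), other scalings and filters, a replicate block, a length and GC offset (splines with 4 degrees of freedom), and leaving out each library. The scripts were tested on simulated counts. The precision is set by 3 libraries per group.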

Additional observations from a re-analysis of the deposited data

Results flagged for a closer look

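The KO effect differed between the subsets for 2 members by the interaction test over all genes. For Lamp1 the effect in eTreg minus that in cTreg was 0.40 (SE 0.08, edgeR adjusted p = 0.00926), from -0.37 in cTreg and 0.02 in eTreg, with 3 of 3 KO libraries below all WT libraries in cTreg. For Ctsa it was -0.31 (SE 0.08, edgeR adjusted p = 0.0357), from 0.54 in cTreg and 0.23 in eTreg, with 3 of 3 KO libraries above all WT libraries in both subsets. The Ctsa call was lost in 9 of the 12 fits without a single library (edgeR adjusted p up to 0.105). Over all genes, 3.8% passed this test, and of the tested members 5.13%. Groups of 3 libraries are too small for a test of single outlying libraries.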

How the results depend on the processing

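No KO call of a member changed direction in any alternative, and the length and GC offset kept all 17 calls in cTreg and all 5 in eTreg. The subset contrasts depended on that offset. In WT it left 20 members called, 14 higher and 6 lower, and it turned Ctsa to 0.17, Ctsc to -0.36, Ctsz to 0.57, Tpp1 to -0.088, Hexa to 0.27, Gaa to 0.15, Tfeb to 0.040, Atp6v1a to -0.011, Sqstm1 to 0.019, Map1lc3b to 0.29, Atg5 to -0.051, Atg7 to 0.044, Atg12 to -0.011 and Ulk1 to 0.36. In KO it left 21 called, 13 higher and 8 lower, and it turned Ctsc to -0.39, Ctsd to 0.084, Ctsz to 0.57, Tpp1 to -0.050, Hexa to 0.44, Gaa to 0.081, Glb1 to 0.11, Tfe3 to 0.50, Mcoln1 to 0.071, Atp6v1a to -0.29, Atp6v1c1 to -0.031, Map1lc3b to 0.16, Atg5 to -0.11, Atg12 to -0.073 and Ulk1 to 0.18. The cause was not tested.

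With the replicate number as a block, the 6 eTreg libraries gave 1712 genes (921 higher, 791 lower) and 7 members, against 771 genes and 4 members in the same libraries without the block and 829 genes with all 12. The block over all 12 libraries lost the calls of Ulk1 for KO in eTreg and of Tpp1 and Atg7 between the WT subsets, added Lgmn to the difference of KO effects (-0.95, edgeR adjusted p = 0.0422), and changed no other call of a member. Library sizes without Rn45s turned the eTreg split of 405 higher and 424 lower genes into 301 and 546.

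Leaving out single libraries gave 11 to 17 members for KO in cTreg (11 without KO cTreg replicate 2) and 1 to 5 for KO in eTreg. The cTreg gene count ran from 2534 to 3490, with 2534 without KO cTreg replicate 2. The eTreg gene count ran from 455 to 890, with 455 without WT replicate 2, 497 without WT replicate 3 and 462 without KO replicate 3. For the difference of KO effects it gave 314 to 570 genes (314 without KO cTreg replicate 2) and 1 to 3 members, with 1 in each fit except those without WT cTreg replicate 1 or 2, KO cTreg replicate 1 or KO eTreg replicate 2. The subset contrasts kept 28 to 31 members in each genotype. With 3 libraries per group, differences of about 0.2 (Gabarap, Glb1, Atg7) lay near the limit of what passed, and Ctsh, Cd63 and Wipi1 had too few reads for a statement on KO.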
